A study of Mus musculus with 2 samples.

Results

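The genes described here encode the SNARE proteins of the syntaxin, VAMP and SNAP25 families, with the Munc18 proteins and other proteins named for binding syntaxins. They were all protein-coding genes whose symbol is Stx, Vamp or Stxbp followed by a number and at most 1 letter, or Snap23, Snap25, Snap29 or Snap47. This gave 33 genes of 21755 protein-coding genes on chromosomes 1 to 19 and X. Their open chromatin was read from ATAC-seq, which cuts and tags accessible DNA with a transposase, in primary megakaryocytes, the large marrow cells from which platelets are shed. The samples were 2 replicates of 1 group, from adult male C57BL/6J mice aged 5 to 6 weeks with no treatment or allele given, at 50000 cells each. They were separate biosamples with the same donor record, and sequencing instruments are listed for replicate 2 only. Spreads between them may be technical, and no test between conditions was possible. A region is an interval of open chromatin listed in both replicates, and its value is the authors' fold enrichment over local background. The lists held no read counts, so depth is unknown and a missing region means that none was detected. The label was set against marker genes, and 6 of 17 megakaryocyte genes had a region at a start, among them Itga2b, Itgb3, Pf4 and Gata1. Of 10 neutrophil marker genes 9 had such a region, as did 2 of 7 mast cell genes, 5 of 9 neuronal genes and 0 of 5 hepatocyte genes. The share over all protein-coding genes was 59.8%, so the neutrophil genes lay above it, the megakaryocyte, mast cell and hepatocyte genes below it, and the neuronal genes near it. How far cells other than megakaryocytes contributed to the regions below was not tested.

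Granule release depends on membrane fusion. A VAMP on the vesicle zips together with a syntaxin and a SNAP25-type protein on the target membrane, and a Munc18 protein holds and guides the syntaxin. In platelets, VAMP8 is the main granule SNARE in mouse and human, SNAP23 is its partner on the plasma membrane, and syntaxin 11 with Munc18-2, encoded by Stxbp2, is needed for secretion in humans. Megakaryocytes make these proteins and load them into platelets, which have no nucleus.

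Of the 33 genes, 29 (87.9%) had a region within 500 bp of a transcript start, called an open promoter here, against 13004 (59.8%) of all protein-coding genes. The 4 without one included Snap25, Stx1a and Stxbp5l, all best known from neurons. The synaptobrevin genes Vamp1 and Vamp2 had an open promoter, as did 5 of the 9 neuronal marker genes, so neuronal genes fell on both sides. The IDR-thresholded lists, a stricter set that keeps peaks ranked reproducibly, also had a region at all 29 in both replicates, against 53.0% of all genes. At the annotated 5′ end itself, 28 of the 33 genes had a region, against 54.4% of all genes, and the exception among the 29 was Stx4a. Fold enrichment at the strongest region of each open promoter ranged from 4.66 at Stxbp5 to 16.4 at Stx6. The median was 11.9 for the 29 genes, against 11.5 for all open promoters. With quartiles of 8.66 and 14.3 for all open promoters, 6 of the 29 genes lay below the lower, 15 between them and 8 above the upper.

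**Figure D1:**
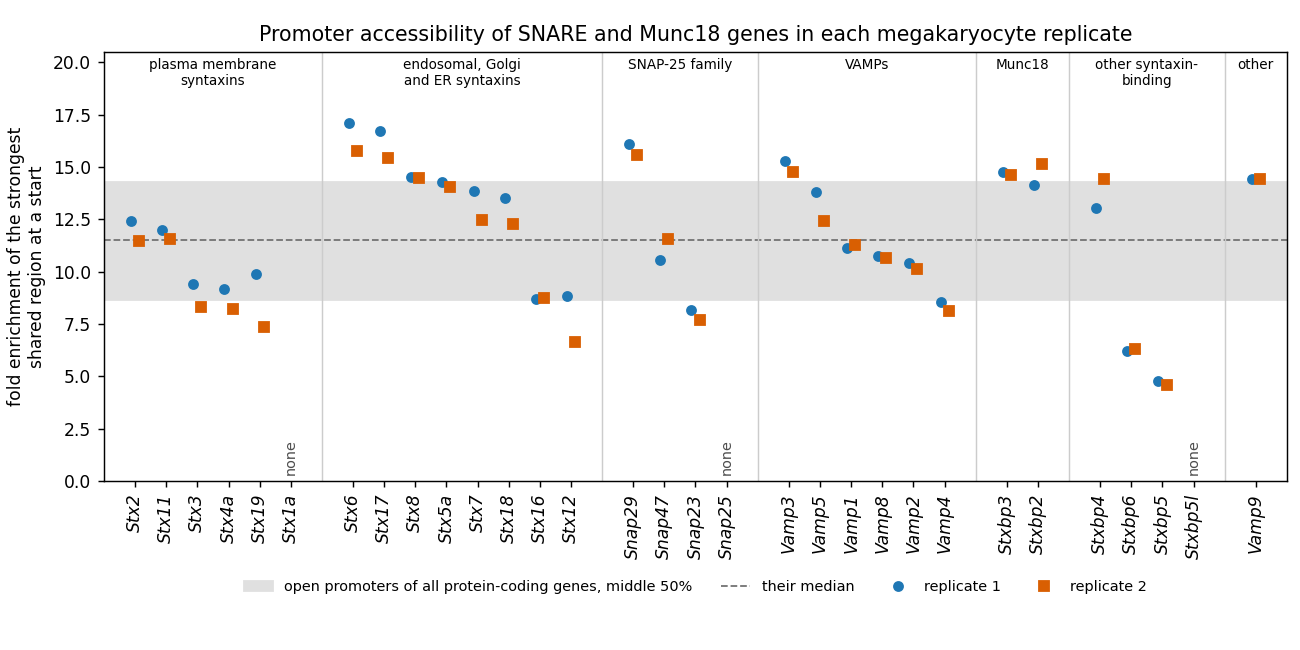
Fold enrichment of the strongest shared region at a start, for 31 of the 33 genes in replicate 1 (circles) and replicate 2 (squares), ordered by role and then by mean. The band and dashed line give the quartiles (8.66 and 14.3) and the median (11.5) of open promoters of all protein-coding genes. Stxbp5 and Stxbp6 sit lowest among the open genes, and 3 of the genes drawn have no shared region.

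The replicates gave close values. The SD between them (n = 2) was 0.379 at the median of the 29 promoters and 1.79 at most, at Stx19. Replicate 2 was lower at 23 of the 29 promoters, and its median log2 ratio to replicate 1 was −0.05, while over all open promoters it was lower at 62.6% and the median was −0.04. When the genes were ranked by their mean, 20 of 28 neighbouring pairs had overlapping replicate values, so the order below is coarse.

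The plasma membrane syntaxins mark where a granule docks. Stx11 had fold enrichments of 12.0 and 11.6 in replicates 1 and 2, and Stx2, which is spread over many tissues, had 12.4 and 11.4. These were the highest of this class. Stx4a, the mouse gene of syntaxin 4, had 9.20 and 8.23 at an internal start of coding transcripts, 16.5 kb from its annotated 5′ end, where no region was found. Stx3, known for delivery to the apical membrane of epithelia, had 9.41 and 8.34 at a region 0.4 kb upstream of its 5′ end, near starts of non-coding transcripts alone. A weaker region near a coding start had 5.31 and 4.94. Stx19 had 9.89 and 7.36, and its start held 3 CpG dinucleotides in the 300 bases around the 5′ end. Stx1a, a syntaxin of the synapse, had no region at a start in either replicate. The median of the open promoters of this class was 8.87.

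All 8 syntaxins of endosomes, the Golgi and the endoplasmic reticulum had an open promoter, with a median of 13.7. Stx6, of the trans-Golgi network and endosomes, was the highest of all 29 genes at 17.1 and 15.7. Stx17, which marks autophagosomes for fusion with lysosomes, followed at 16.7 and 15.4. The late endosomal syntaxins Stx8 and Stx7 had 14.5 in both replicates and 13.9 and 12.5. Stx5a, which acts between the endoplasmic reticulum and the Golgi, had 14.3 and 14.0, and Stx18 of the endoplasmic reticulum 13.5 and 12.3. Stx16 of the trans-Golgi network had 8.69 and 8.76. Stx12, which acts in recycling endosomes, was lowest in this class at 8.82 and 6.66, and its SD of 1.53 was among the largest. The values of Stx12 and Stx16 lay well under those of the other 6 genes in both replicates.

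In the SNAP25 family, Snap29 had 16.1 and 15.6 in a region it shares with the start of Pi4ka. Snap47 had 10.5 and 11.6 in a region it shares with Jmjd4. Snap23, the family member of platelets, was the lowest open one at 8.15 and 7.68, which is under the lower quartile of all open promoters. Snap25, the synaptic member, had none. The order Snap29, Snap47, Snap23 held in both replicates.

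All 6 VAMP genes had an open promoter, with a median of 11.0. Vamp3, or cellubrevin, was highest at 15.3 and 14.7, and Vamp5, first described in muscle, had 13.8 and 12.4. Vamp8 had 10.8 and 10.7. Vamp1 and Vamp2, the synaptobrevins, had 11.1 and 11.3, and 10.4 and 10.1. Vamp4 of the trans-Golgi network was lowest at 8.54 and 8.11. Vamp1, Vamp2 and Vamp8 thus lay within about 1 unit of each other, below the median of all open promoters. Vamp9 is also in the annotation, and its promoter had 14.4 in each replicate. Vamp7 had no protein-coding entry in the annotation used and was not analysed here.

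The Munc18 genes Stxbp3 and Stxbp2 were open and close together. Stxbp3, whose product pairs with syntaxin 4, had 14.7 and 14.6, and Stxbp2 had 14.1 and 15.2. Their replicate ranges overlapped, so no order between them can be read. Each had a mean of 14.7, near the upper quartile of all open promoters. Of the other syntaxin-binding proteins, Stxbp4 had 13.0 and 14.4 in a region shared with Cox11. Stxbp6, or amisyn, had 6.21 and 6.29. Stxbp5, or tomosyn, which takes the place of a VAMP and restrains fusion, had 4.76 and 4.57, the lowest of the 29 genes with 3.22% of all open promoters below it. At Stxbp5 the open chromatin at its starts was split into a pair of regions around the 5′ end, the weaker with 2.93 and 3.46. A stronger shared region, with 12.2 and 11.5, had its summit about 1 kb upstream of the 5′ end. It was classed with the start of another gene, so it entered neither the promoter value of Stxbp5 nor its distal regions. The low promoter value thus does not describe all open chromatin next to this gene.

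The open DNA at the 4 genes of the platelet fusion complex is shown here, since their products are the known machinery of platelet granule release. Bases are from the GRCm38 assembly, which is mm10, 5′ to 3′ on the strand of the gene, and lie inside the shared region and outside annotated untranslated regions. For Stx11 (chr10:12964299-12964598, minus strand), Stxbp2 (chr8:3630655-3630954, plus strand) and Snap23 (chr2:120567402-120567670, plus strand) they end at the base before the annotated 5′ end. For Vamp8 (chr6:72390247-72390476, minus strand) nearly all of the region lies inside the gene, and the bases run from the first codon into the first intron. The Stx11 and Snap23 stretches hold the summit of their region, and the Stxbp2 and Vamp8 stretches do not. Capitals mark any of the motif letters listed further on.
Vamp8: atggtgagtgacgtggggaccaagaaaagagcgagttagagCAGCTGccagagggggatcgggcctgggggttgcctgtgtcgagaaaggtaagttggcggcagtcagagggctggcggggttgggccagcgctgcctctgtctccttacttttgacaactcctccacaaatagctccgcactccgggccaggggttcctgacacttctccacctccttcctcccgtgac
Stx11: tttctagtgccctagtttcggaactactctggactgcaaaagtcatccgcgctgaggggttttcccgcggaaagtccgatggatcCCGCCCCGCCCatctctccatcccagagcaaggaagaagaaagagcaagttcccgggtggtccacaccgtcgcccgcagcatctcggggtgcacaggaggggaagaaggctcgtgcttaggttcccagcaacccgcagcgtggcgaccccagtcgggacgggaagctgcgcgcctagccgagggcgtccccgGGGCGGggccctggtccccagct
Stxbp2: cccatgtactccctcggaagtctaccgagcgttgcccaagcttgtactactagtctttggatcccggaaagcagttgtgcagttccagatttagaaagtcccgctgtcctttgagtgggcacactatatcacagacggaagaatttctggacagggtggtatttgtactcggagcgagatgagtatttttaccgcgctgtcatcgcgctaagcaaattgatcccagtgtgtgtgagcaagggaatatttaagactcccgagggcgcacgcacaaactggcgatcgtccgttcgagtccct
Snap23: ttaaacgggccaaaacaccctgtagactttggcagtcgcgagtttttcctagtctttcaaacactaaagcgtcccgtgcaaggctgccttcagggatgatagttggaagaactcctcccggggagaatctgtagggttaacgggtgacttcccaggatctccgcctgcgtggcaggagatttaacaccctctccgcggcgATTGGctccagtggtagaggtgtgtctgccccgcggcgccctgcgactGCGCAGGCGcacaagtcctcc
The Stx11 stretch held 25 CpG dinucleotides and GGGCGG or its complement at 3 places, 2 of them overlapping. The Snap23 stretch held 18 CpGs, with a CCAAT box on the opposite strand and an NRF1 motif close to the start. The Stxbp2 stretch held 19 CpGs and none of the motifs, and the Vamp8 stretch 10 CpGs and 1 CAGCTG. Within 100 bp of the summits of these regions, Stxbp2 had CCGGAAG and CACGTG and Vamp8 had none of the motifs.

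CpG-rich starts were common among the genes, with a median of 19 CpGs in the 300 bases around the 5′ end, against 11 for all protein-coding genes. Genes without an open promoter did not have fewer than the median of all genes. Snap25 had 15, Stx1a 19 and Stxbp5l 18 CpGs. Among all protein-coding genes with at least as many CpGs, between 86.7% and 87.7% had an open promoter. Stxbp5l had a region in replicate 2 alone, at a fold enrichment of 5.49. For Snap25 and Stxbp5l the nearest shared region was 177.4 and 148.5 kb from any start. Stx1a had a shared region in its own intron, 1.4 kb from a start, with 7.15 and 7.79.

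Some genes had more than 1 region at their starts. This was so for 10 of the 29 open genes, against 24.0% of all open genes. In 7 of them, among them Stx11, Stx6 and Stxbp2, the weaker region lay within 1 kb of the 5′ end and under 6-fold. Stxbp3 differed, with 13.2 and 13.3 at an intronic region 42.4 kb from the 5′ end, at the start of a non-coding transcript, nearly as strong as its main promoter. Vamp1 had 9.83 and 9.04 at a region 15.6 kb from its 5′ end that also holds the start of Tapbpl. The strongest region also held a start of another gene in 7 of the 29, against 30.5% of all open promoters. Besides those of Snap29, Snap47 and Stxbp4 these were Stx5a with 1700092M07Rik, Stx8 with Cfap52, Stx12 with the pseudogene Gm13033, and Stxbp5 with the non-coding RNA gene Gm46210. A region at a shared start cannot be given to either gene. The strongest regions had a median width of 916 bp, against 873 bp for all open promoters, and the widest was that of Stx4a at 1874 bp.

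Motif letters were searched on both strands within 100 bp of each summit, and none of the motifs contains another. The E-box CAGCTG was found at 8 of the 29 promoter regions (27.6%), against 11.7% of the 11761 regions at open promoters of all genes. These 8 were Stx11, Stx4a, Stx7, Stx8, Snap47, Stxbp5, Stxbp6 and Vamp9. The NRF1 letters GCGCANGCG were found at 6 (20.7% against 10.4%), among them Snap23, Snap29, Snap47 and Stx2. GGGCGG, bound by SP and KLF factors, was found at 19 (65.5% against 59.8%) and CCAAT at 9 (31.0% against 32.3%). The ETS letters CCGGAAG were found at Stxbp2 alone (3.45% against 16.1%). TGTGGTT of RUNX factors was found at Stx2 and Stxbp5, TGACGTCA at Stxbp3 and Vamp3, and CACGTG at Stx6 and Stxbp2. The GATA letters AGATAA were found at 0 of the 29, against 2.66% of all. The same held for TGANTCA, searched as letters of AP-1 and NF-E2 and named AP-1 in this text, against 3.55%. It also held for TTCAGCACC, part of the element bound by the neuronal repressor REST, against 0.349%. With shares this low, 0 of 29 cannot be told from the share of all open promoters. A match is a description of the letters and not of binding.

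Distal regions, with no part within 1 kb of any annotated start, were counted within 50 kb of any start of a gene. Of the 33 genes, 17 had 5 or more, against 33.0% of all protein-coding genes. The median was 5 per gene, against 3 for all genes, and the means were 4.79 and 3.67. Stx11 had 15, a count that 335 of all genes (1.54%) reached. Vamp2 had 10, reached by 7.55% of all genes, and Stx19 and Vamp1 had 8 each. Snap25, Stxbp5l, Stx8 and Snap29 had none, as had 22.7% of all genes. The last pair, Stx8 and Snap29, thus had strong promoter regions, each shared with a start of another gene, and no distal region. Snap25 and Stxbp5l had neither a promoter region nor a distal one. By class, the plasma membrane syntaxins and the VAMPs had medians of 6, and the endosomal, Golgi and endoplasmic reticulum syntaxins 3.

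**Figure D2:**
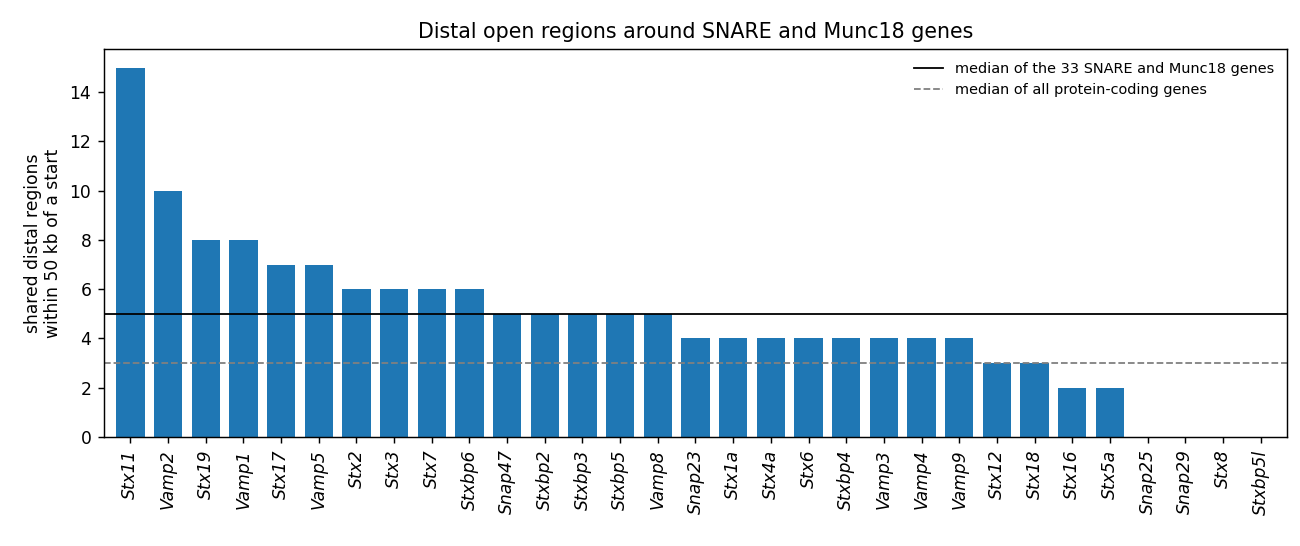
Shared distal regions within 50 kb of any start, for 31 of the 33 genes, in falling order. Lines give the median of all 33 genes (5, solid) and of all protein-coding genes (3, dashed). Stx11 stands highest with 15, and 4 genes have none.

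In all there were 149 different distal regions, of which 9 were counted for a pair of neighbouring genes, 5 of them for Vamp5 and Vamp8. By summit, 73 were intronic, 66 intergenic and 10 exonic, which was not compared with the shares over all distal regions. The median fold enrichment of the 149 was 7.09, against 7.12 for the 48720 distal regions of the genome. Distance alone ties a region to a gene here. For 76 of the 149 the nearest start of a protein-coding gene was that of one of the 33 genes, and 43 lay inside the body of one.

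The Stx11 locus held the strongest distal region of the set. This region, at chr10:13008000-13009108, had 19.3 and 19.1. It lay 44.1 kb upstream of Stx11 in an exon of Sf3b5, a splicing factor gene whose own start is nearer. Another, at chr10:12996937-12997418, had 16.9 and 16.2 and was intergenic, 33.0 kb upstream of Stx11, with the start of Sf3b5 nearer. Its replicate values overlapped those of the strongest regions near Stx19 (16.2 and 16.9) and Vamp8 (17.4 and 15.0). No order among these can be read. Inside Stx11 itself, an intronic region 6.8 kb downstream of the nearest start had 10.1 and 11.3. Further intergenic regions had 9.40 and 10.5 at 28.0 kb downstream, and 10.2 and 9.63 at 11.8 kb upstream. The 15 regions thus lay on both sides of the start, and 2 of them exceeded the promoter in both replicates. Of the weaker ones, 2 held AGATAA and 3 TGTGGTT within 100 bp of the summit.

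Vamp8 and Vamp5 are neighbours on chromosome 6 and share 5 distal regions. The strongest, at chr6:72407176-72407608, had 17.4 and 15.0 and lay 16.6 kb upstream of Vamp8 and 26.9 kb upstream of Vamp5, with Ggcx, the gamma-glutamyl carboxylase gene, nearer. A region 11.3 kb upstream of Vamp8, for which Vamp8 is nearest, had 13.6 and 15.1. An intronic one in Ggcx had 10.1 and 12.7, and one inside Vamp5 had 9.31 and 8.0. The means of all 4 but the last were above the mean of 10.7 at the Vamp8 promoter.

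**Figure D3:**
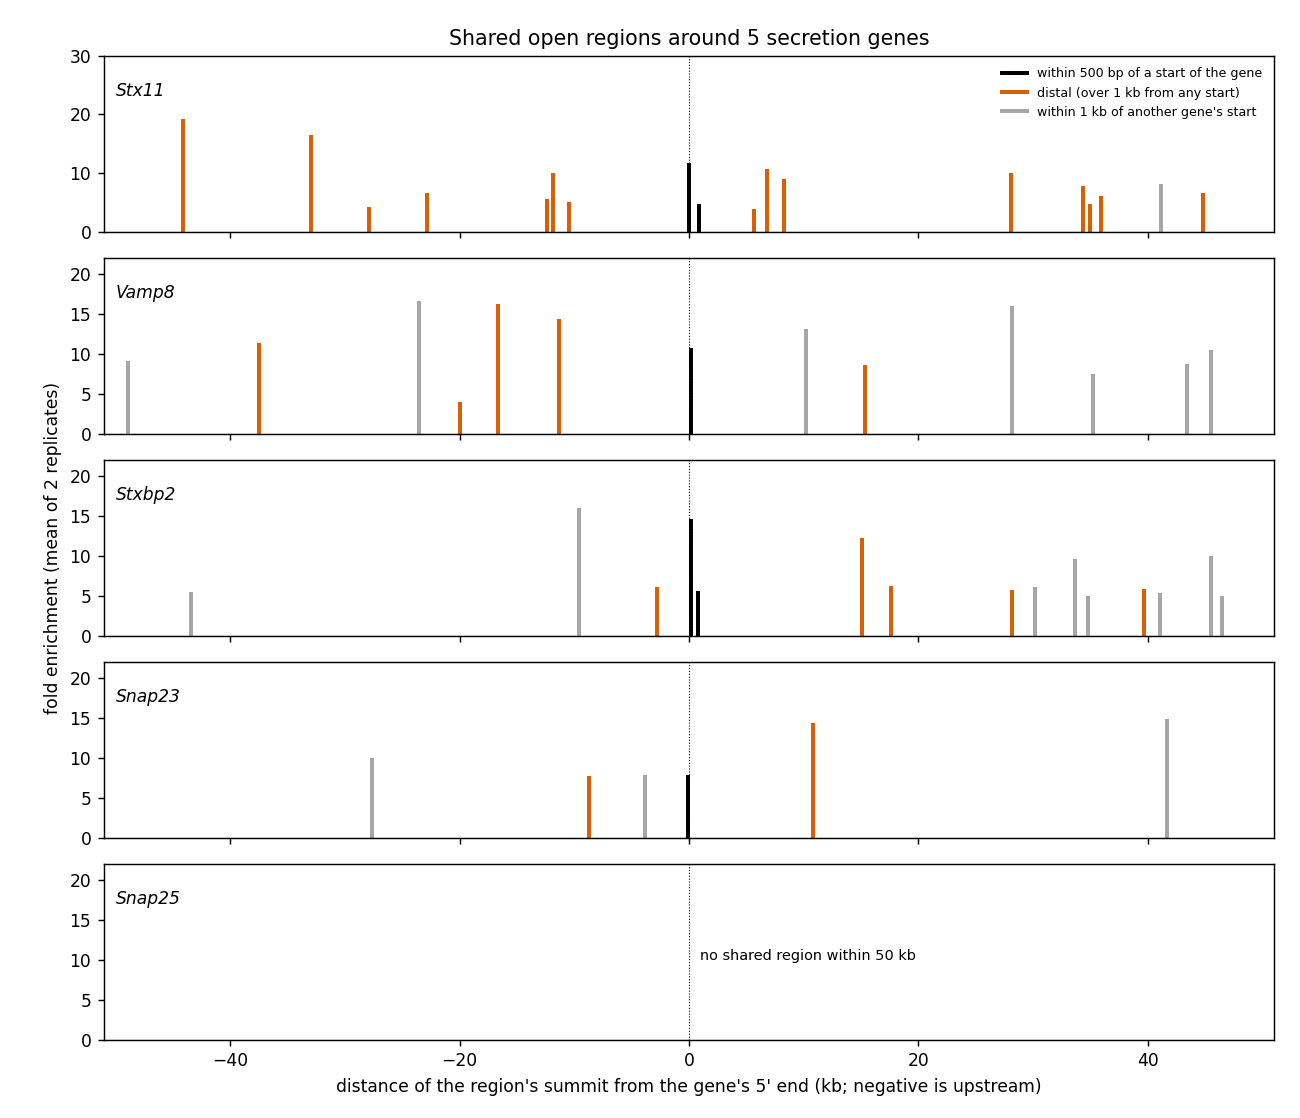
Shared regions within 50 kb of the 5′ end of Stx11, Vamp8, Stxbp2, Snap23 and Snap25, placed by summit in the direction of transcription, with height as mean fold enrichment of 2 replicates. Black marks the gene's own starts, orange distal regions and grey the starts of other genes. Stx11 has distal regions on both sides up to 19.2-fold, and Snap25 has no shared region in the window. The vertical axis of Stx11 runs higher than the others, and 2 of the 4 distal regions of Snap23, 32.6 and 41.7 kb downstream of its nearest start and nearer to Stard9, lie outside the window.

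The bases around the summits of 2 of these strong regions follow, chosen after their values were seen because the strongest Stx11 region lies in an untranslated region and is not printed. They are given on the plus strand of GRCm38, from chr10:12997117-12997416 for Stx11 and chr6:72407176-72407473 for Vamp8 and Vamp5, with motif letters in capitals.
Stx11, 33.0 kb upstream: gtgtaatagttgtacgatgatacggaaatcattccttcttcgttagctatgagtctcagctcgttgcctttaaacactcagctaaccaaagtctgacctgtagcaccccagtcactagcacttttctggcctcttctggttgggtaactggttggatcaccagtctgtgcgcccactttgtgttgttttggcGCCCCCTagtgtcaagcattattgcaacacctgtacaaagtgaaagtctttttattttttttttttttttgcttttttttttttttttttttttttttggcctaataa
Vamp8, 16.6 kb upstream: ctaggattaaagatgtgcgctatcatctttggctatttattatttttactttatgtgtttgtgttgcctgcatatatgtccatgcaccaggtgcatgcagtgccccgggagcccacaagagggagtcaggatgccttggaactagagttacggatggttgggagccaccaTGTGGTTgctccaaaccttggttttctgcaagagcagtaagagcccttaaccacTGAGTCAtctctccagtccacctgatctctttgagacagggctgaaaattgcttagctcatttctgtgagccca
The Vamp8 stretch held TGTGGTT of RUNX factors and TGAGTCA of AP-1 and NF-E2. Whether these letters lie in repeat elements was not examined. The stretch upstream of Stx11, nearer to Sf3b5, held AGGGGGC on the opposite strand, part of the motif of CTCF, a factor of chromatin loops. Those letters were added to the search after this sequence was seen, and they occurred at 10 of the 149 distal regions (6.71%), against 6.21% of all distal regions.

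Strong distal regions also lay near genes with weak promoters. Among the 27 open genes with any distal region, the strongest distal region exceeded the promoter in 12, a smaller share than the 52.0% of all such genes. A weak promoter is exceeded more readily, so the cases below do not set these genes apart. Stxbp6 had 14.2 and 14.7 at 17.9 kb upstream, against a promoter mean of 6.25. Stxbp5 had 12.2 and 11.6 at an intronic region 20.1 kb downstream of a start, against 4.66. Snap23 had 13.4 and 15.3 in its own intron, 7.8 kb upstream of the nearest start, an internal one, against 7.91. Stx19 had 16.2 and 16.9 in an intron of Arl13b, within which Stx19 lies, against 8.62. In each of these 4 genes the distal region was higher than the promoter in both replicates. Vamp4 had 11.9 and 12.1 at 5.3 kb upstream, and Stx12 had 14.8 and 12.3 at 39.1 kb downstream, nearer to Ppp1r8. Stx6, with the strongest promoter, had 13.1 and 16.2 in an intron of Mr1, which did not exceed its promoter mean.

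**Figure D4:**
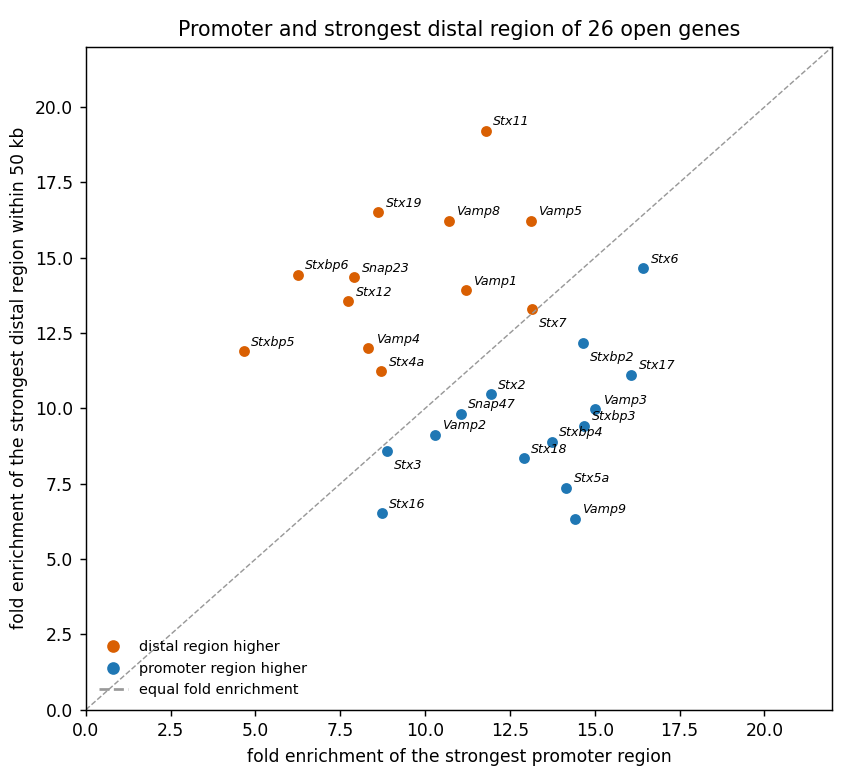
Mean fold enrichment of the strongest distal region within 50 kb against that of the strongest promoter region, for 26 of the 27 open genes that have both. Orange points, 12 in number, lie above the line of equal values. Stx11 is highest on the vertical axis at 19.2, and Stxbp5 has the lowest promoter at 4.66.

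The strongest distal regions of further genes with 5 or more were as follows. Stx7 had 12.4 and 14.2 at 6.4 kb upstream, in a region with AGATAA and an AP-1 motif. Vamp1 had 14.6 and 13.3 at 40.4 kb downstream, nearer to Tuba3a. Both regions exceeded the upper quartile of distal regions, which was 9.73. Stxbp2 had 12.8 and 11.5 at 4.4 kb downstream of a start, past the end of the gene, and its other 4 regions had means under 6.3. Stx17 had 11.6 and 10.7 at 24.5 kb upstream. Stx2 had 11.2 and 9.76 at 7.4 kb downstream of an internal start, 26.8 kb from its 5′ end. Snap47 and Stxbp3 had their strongest at 10.2 and 9.42, and 10.1 and 8.78, that of Stxbp3 nearer to Aknad1. Stx3 had 7.37 and 9.82. Vamp2, with 10 regions, had only 2 above 6-fold, the stronger at 8.92 and 9.33 and nearer to Hes7. Its count thus came from weak regions, while that of Stx11 included 5 with means above 9.9.

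Over the 149 distal regions, AGATAA was found at 17 (11.4% against 9.27% of all distal regions) and TGTGGTT at 20 (13.4% against 10.3%). Within 50 bp of the summit AGATAA was found at 5 (3.36% against 4.15%), so its direction against all distal regions turned with the window. The AP-1 letters were at 16 (10.7% against 10.7%), CCAAT at 36 (24.2% against 21.1%) and CAGCTG at 10 (6.71% against 14.0%). The share with CAGCTG was thus below that of all distal regions, while at the promoters of the same genes it was above. Some regions near these genes were listed in 1 replicate only. At starts there were 1 in replicate 1 and 2 in replicate 2, and distally 23 and 25. The highest distal ones had 7.11 in replicate 1 and 6.87 in replicate 2, so none matched the strong shared regions described above.

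Other genes of vesicle fusion fell on either side of the genes above. Of 12 other SNAREs all had an open promoter, led by Gosr1 at 23.2 and 21.0 and Sec22b at 18.4 and 17.9, which act between the endoplasmic reticulum and the Golgi. The 5 other proteins of the Munc18 superfamily were all open, led by Scfd1 at 22.8 and 20.6 and Vps33a at 17.2 and 15.9. All 4 genes that take spent complexes apart were open, with Napb at 14.7 and 14.6 and Nsf, the ATPase, at 13.2 and 12.8. All 8 exocyst genes were open, with Exoc7 at 20.9 and 19.9 and Exoc4 at 21.1 and 19.3. Every gene of these 4 lists thus had an open promoter, against 59.8% of all protein-coding genes.

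Docking and priming genes were open in 9 of 16, a share near the 59.8% of all protein-coding genes, with a median of 9.0. Unc13b had 13.0 and 13.7 and Unc13a 12.3 and 10.5. Unc13d, which encodes the Munc13-4 of platelet granule priming, had 8.92 and 9.63, and Rab27a, a granule Rab, had 8.99 and 9.09 with 16 distal regions. Rab27b, its platelet relative, had 8.17 and 6.36 at an internal start. Of the 7 without a region, Cadps, Exph5 and Myrip come first by name. Calcium sensors and complexins were open in 5 of 23, a smaller share than the 59.8% of all genes, with Syt11 at 11.3 and 10.2 and Syt3 at 8.89 and 11.5. The complexin genes Cplx1, Cplx2 and Cplx3 had none.

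**Figure D5:**
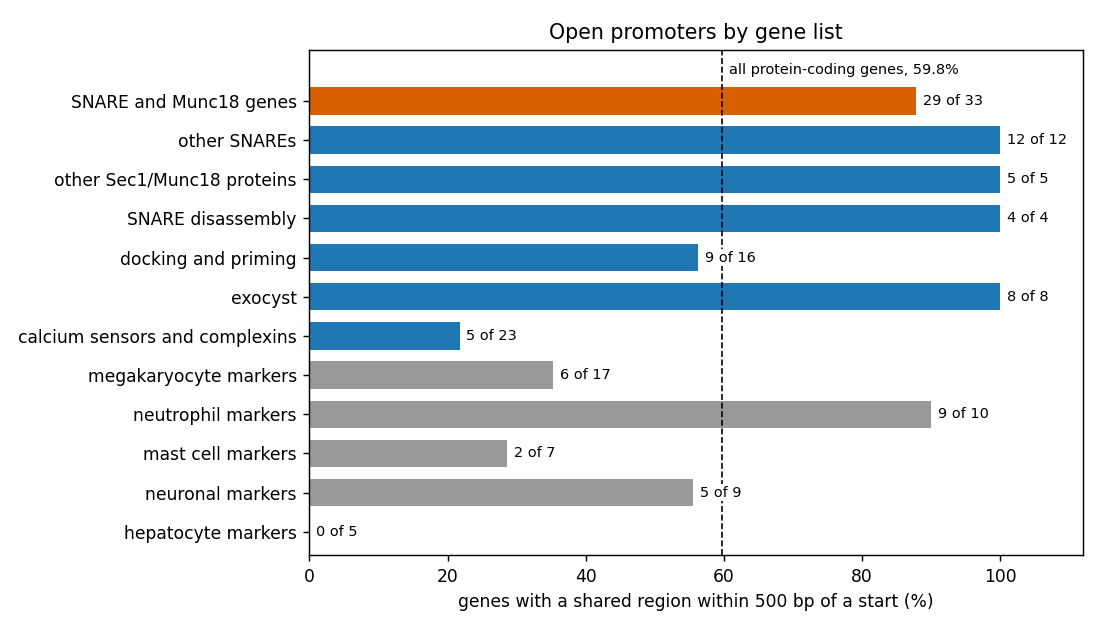
Share of genes with a shared region within 500 bp of a start, for the SNARE and Munc18 genes (29 of 33), 6 lists of other secretion genes and 5 lists of cell type markers. The dashed line is the share of all protein-coding genes, 59.8%. Bars for the general fusion machinery reach 100%, and that for calcium sensors and complexins is 5 of 23.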

How the data were processed

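Peak lists of 2 ATAC-seq samples of mouse megakaryocytes were used, 1 group of 2 replicates grouped by their labels. Per the labels, peaks were called on mm10 from filtered alignments and a list of excluded regions. The aligner, the peak caller and their versions are not given in the sources used here. The deposited lists give each peak's fold enrichment, a ratio over local background, and its −log10 p-value, as the peak format defines these columns. No scaling between samples is stated, and no read counts were available, so depth and its error are unknown.

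The pseudoreplicated lists of each sample were used, with the IDR-thresholded, replicated-peaks and conservative lists as alternatives. Peaks overlapping by at least 1 bp were merged, keeping the highest fold enrichment and its summit, and overlapping regions of both replicates were joined. Starts were those of every GENCODE M21 transcript. The strongest region within 500 bp gave a gene's value. Distal regions lay over 1 kb from any start. Sequences were read from GRCm38, which is mm10.

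With 1 group of 2 samples there was no test. Members and lists were chosen with earlier results of these data known. Every member was named except those not reported here. Of each other list, the rule named the 2 genes with the highest means and the first 3 by name without a region. Unc13d, Rab27a and Rab27b, and distal regions beyond each gene's strongest, were chosen after their values were seen. The steps were tested on simulated regions. Python 3.11.15 with numpy 2.4.6 and matplotlib 3.10.9 was used.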

Additional observations from a re-analysis of the deposited data

How the results depend on the processing

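The count of 29 genes with an open promoter lay between 28 and 31 under the alternatives run. It was 28 with 50% reciprocal overlap and 31 in the replicated-peaks list, which added Stx1a at 3.28-fold and Stxbp5l at 4.82-fold. Leaving out 1 replicate gave 29 to 30 open promoters, 174 to 176 distal regions, a median promoter fold enrichment of 11.6 to 12.4, and 44 to 45 of the 68 other secretion genes, against 43. The median promoter fold enrichment otherwise lay between 11.9 and 12.4. Counted only at starts of protein-coding transcripts, an alternative chosen after seeing the data, Stx3 had 5.13 in place of 8.87 and no other gene moved by over 1 SD.

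The 149 distal regions became 66 in the IDR-thresholded lists, where all distal regions of the genome became 22409 in place of 48720. They were 83 within 20 kb, 252 within 100 kb and 76 where the nearest start had to be that of the gene. The median log2 ratio of the replicates was 0.01 by −log10 p, in place of −0.05. Within 50 bp of the summit, CCAAT was found at 5 promoters, TGTGGTT at 1 and TGACGTCA at 0, in place of 9, 2 and 2. There, AGATAA was found at 3.36% of the 149 distal regions, against 4.15% of all distal regions, the opposite direction to 11.4% against 9.27%. No paired analysis was possible because there was only 1 group. With unknown depth, a gene without a region may have open chromatin below detection.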
